A study of Mus musculus with 6 samples.

Results

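Complex I, NADH:ubiquinone oxidoreductase, is the entry point of the mitochondrial respiratory chain, and its genes were followed between 3T3-L1 adipocytes and 3T3-L1 preadipocytes. The members were the protein-coding genes of GENCODE M21 whose symbols begin with Nduf followed by a, b, c, s, v or af and a number. This gave 45 of the 54752 genes listed, 37 named as subunits and 8, the Ndufaf genes, as assembly factors. 3T3-L1 is a mouse embryonic fibroblast line that turns into fat cells in culture. RNA from 3 adipocyte libraries and 3 preadipocyte libraries was sequenced, each set numbered 1 to 3. The labels give both groups the strain C57BL/6J, the tissue embryo, no treatment and one shared medium note naming BCS media, DMI and FBS, so they do not say which of these each group received. The source name reads adipocyte for all 6 libraries, and the groups were taken from the titles and the cell type labels. The day of harvest is not given in the sources used here. 3T3-L1 is a single clonal line, and the labels do not say whether libraries of one group were grown separately. The p-values therefore reflect only how far these libraries vary, which may be technical.

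Complex I takes electrons from NADH, passes them along a chain of iron-sulfur clusters to ubiquinone and pumps protons across the inner membrane. Its matrix arm holds an N module that oxidises NADH and a Q module that reduces ubiquinone, and its membrane arm holds the proton pumps, whose core subunits are encoded by mitochondrial DNA. The other subunits are nuclear, some of them core subunits shared with bacteria and the rest accessory. Assembly factors help to build the complex and are not kept in the finished enzyme. In fat cells, mitochondria supply citrate for fatty acid synthesis beside their part in respiration.

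In adipocytes, all 44 members that could be tested were higher than in preadipocytes, and the rise was about 4-fold at the median for subunits and less for assembly factors. All 36 tested subunits and all 8 assembly factors passed the threshold (edgeR quasi-likelihood test, Benjamini-Hochberg adjusted p below 0.05 over 14726 genes), and none was lower. Among all tested genes, 35.7% were higher and 37.9% lower, with a median log2 fold change of -0.06. Higher genes made up 48.5% of all calls, a share that was 34.3% under total count scaling and 27.9% under limma on log2(TPM + 1). The adipocyte libraries lay wholly above the preadipocyte libraries in CPM (counts scaled to a common library size by TMM) for 44 of 44 members, against 36.8% of all tested genes. The median log2 fold change was 2.05 (4.13-fold) over the subunits and 1.39 (2.63-fold) over the assembly factors. In the main fit, a rise of over 2-fold was seen in 36 of 36 subunits and 6 of 8 assembly factors. One of over 4-fold was seen in 18 subunits and 1 assembly factor. Of all tested genes, 19.5% had a fold change above 2 and 9.53% one above 4. The counts over 2-fold and over 4-fold depend on the setting. The lowest log2 fold change over all settings was 0.61 for Ndufs4, 0.65 for Ndufa7 and 1.49 for Ndufaf4. In bulk RNA a larger share of cells of one kind and more RNA per cell cannot be told apart.

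**Figure D1:**
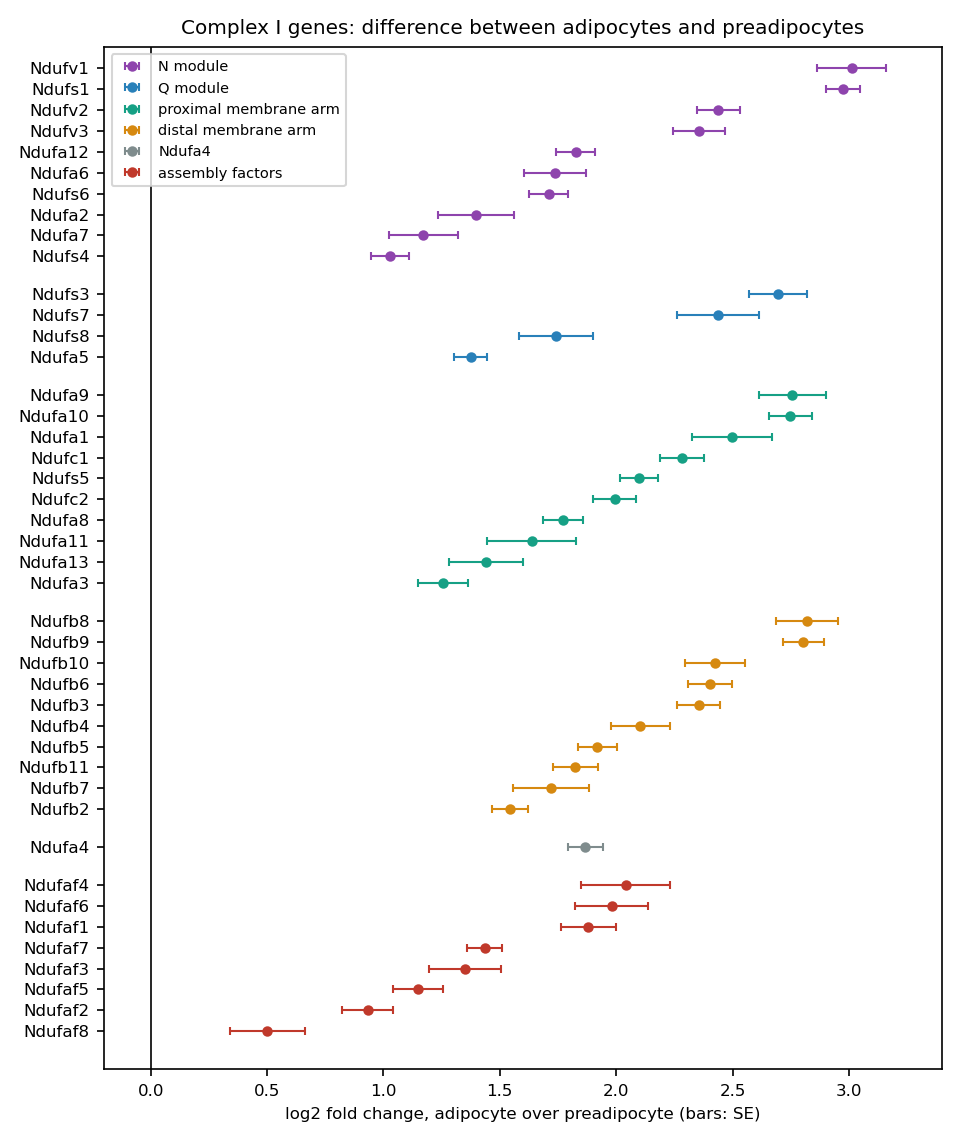
Fitted log2 fold change of 43 tested complex I genes, adipocyte over preadipocyte, with its standard error, grouped by module. Every point lies right of 0, from Ndufaf8 at 0.50 to Ndufv1 at 3.01. All 8 assembly factors lie below the median subunit at 2.05, though Ndufaf4 at 2.04 (SE 0.19) is level with it within its error.

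The cells matched their labels. Pparg, the master regulator of fat cell formation, stood at 567.6 ± 7.97 CPM in adipocytes and 37.9 ± 1.39 CPM in preadipocytes, and the preadipocyte marker Dlk1 at 140.6 ± 27.0 CPM in adipocytes and 3245 ± 531.2 CPM in preadipocytes (SD, n = 3 each). Adipoq, which encodes the fat cell hormone adiponectin, averaged 4525 CPM in adipocytes and 0.117 CPM in preadipocytes. All 6 adipocyte markers were higher and all 5 preadipocyte markers lower. The 5 macrophage markers summed to 0.952 to 1.68 CPM in adipocyte libraries and 1.86 to 2.40 CPM in preadipocyte libraries, with Adgre1 at 0 in all 6, and the 4 skeletal muscle markers were at 0 throughout. The 4 endothelial markers summed to 0.280 to 0.692 CPM in adipocyte libraries and 0.545 to 0.909 CPM in preadipocyte libraries. Of 4 brown adipocyte markers, Cidea, Cox7a1 and Cox8b were higher in adipocytes and Ucp1 was too low to test. Together these 4 summed to 103.4 to 137.2 CPM in adipocyte libraries and 0 to 0.119 CPM in preadipocyte libraries, and their part in the complex I result was not tested. Total expected counts ran from 23890582 to 26314076 in adipocyte libraries and from 22496486 to 24444491 in preadipocyte libraries.

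The promoters of 6 members are printed as examples. Ndufv1 and Ndufs4 had the largest and smallest rises among subunits, and Ndufb4 and Ndufaf4 carry the NRF1-type motif. Ndufb3 and Ndufa7 face a neighbouring gene across a short gap. Each promoter runs from 250 bases before to 50 after the RefSeq start on GRCm38.p6. It is read 5′ to 3′ on the strand of the gene. Capitals mark matches to the NRF1-type motif. The regions are chr19:4012706-4013005, minus strand (Ndufv1), chr13:114388045-114388344, minus strand (Ndufs4), chr16:37654319-37654618, minus strand (Ndufb4), chr4:24897833-24898132, plus strand (Ndufaf4), chr1:58586147-58586446, plus strand (Ndufb3), and chr17:33824322-33824621, plus strand (Ndufa7).
Ndufv1: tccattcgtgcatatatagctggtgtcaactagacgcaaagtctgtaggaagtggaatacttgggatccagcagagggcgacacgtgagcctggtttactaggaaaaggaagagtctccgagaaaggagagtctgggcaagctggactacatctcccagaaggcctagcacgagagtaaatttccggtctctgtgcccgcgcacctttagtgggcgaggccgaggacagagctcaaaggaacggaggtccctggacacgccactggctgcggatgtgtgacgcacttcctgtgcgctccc
Ndufs4: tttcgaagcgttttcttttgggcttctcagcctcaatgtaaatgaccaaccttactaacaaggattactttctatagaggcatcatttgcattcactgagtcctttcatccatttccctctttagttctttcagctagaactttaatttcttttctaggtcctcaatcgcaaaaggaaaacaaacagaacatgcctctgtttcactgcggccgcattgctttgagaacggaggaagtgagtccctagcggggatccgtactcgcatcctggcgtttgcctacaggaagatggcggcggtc
Ndufb4: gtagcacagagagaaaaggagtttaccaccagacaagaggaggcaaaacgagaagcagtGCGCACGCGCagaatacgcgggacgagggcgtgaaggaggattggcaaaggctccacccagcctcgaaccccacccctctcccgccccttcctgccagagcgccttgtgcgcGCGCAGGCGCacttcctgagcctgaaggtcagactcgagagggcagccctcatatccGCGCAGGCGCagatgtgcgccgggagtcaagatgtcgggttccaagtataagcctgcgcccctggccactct
Ndufaf4: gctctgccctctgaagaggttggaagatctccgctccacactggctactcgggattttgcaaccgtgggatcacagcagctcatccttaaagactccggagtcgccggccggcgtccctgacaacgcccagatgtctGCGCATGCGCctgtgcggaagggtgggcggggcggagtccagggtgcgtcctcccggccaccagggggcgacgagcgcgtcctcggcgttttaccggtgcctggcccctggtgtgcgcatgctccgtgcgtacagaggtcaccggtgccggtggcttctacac
Ndufb3: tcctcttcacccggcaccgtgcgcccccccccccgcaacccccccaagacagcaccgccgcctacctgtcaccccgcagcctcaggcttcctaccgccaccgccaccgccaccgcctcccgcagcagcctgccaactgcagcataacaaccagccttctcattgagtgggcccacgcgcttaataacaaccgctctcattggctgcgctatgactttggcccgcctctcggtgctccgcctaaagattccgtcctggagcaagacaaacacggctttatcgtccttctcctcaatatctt
Ndufa7: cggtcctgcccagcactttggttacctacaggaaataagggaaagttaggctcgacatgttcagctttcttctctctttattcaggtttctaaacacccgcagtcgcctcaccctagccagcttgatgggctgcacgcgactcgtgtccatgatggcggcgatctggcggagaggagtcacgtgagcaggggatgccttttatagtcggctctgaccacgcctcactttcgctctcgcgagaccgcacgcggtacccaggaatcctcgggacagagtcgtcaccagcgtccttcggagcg
Ndufb4 holds 3 such matches and Ndufaf4 holds 1, and the other regions hold none.

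The N module, which oxidises NADH, contained both the largest and the smallest rise among the subunits. Ndufv1 (chr19:4007384-4012806), which binds NADH and the flavin that takes its electrons, had 752.5, 616.8 and 553.6 CPM in adipocyte libraries 1 to 3, against 92.6, 72.2 and 73.7 CPM in preadipocyte libraries 1 to 3. The lowest adipocyte library was far above the highest preadipocyte library, and the fitted rise was 8.06-fold (log2 3.01, SE 0.15, edgeR adjusted p = 1.80e-07). Ndufs1 (chr1:63143596-63176833), the largest subunit and a carrier of iron-sulfur clusters, had 540.3, 564.0 and 558.7 CPM in adipocytes, against 71.1, 71.6 and 68.9 CPM in preadipocytes. It rose by nearly the same factor, with the smallest relative spread of the core subunits (log2 2.97, SE 0.074, edgeR adjusted p = 4.24e-09). Ndufv2, another iron-sulfur protein of the module, had 281.8, 316.2 and 287.1 CPM in adipocytes, against 49.4, 56.8 and 57.0 CPM in preadipocytes (log2 2.44, SE 0.092).

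Ndufs4 (chr13:114287795-114388258), an accessory subunit whose loss in mice gives a Leigh syndrome model, rose least of all subunits. It had 74.7, 76.6 and 74.5 CPM in adipocytes, against 40.1, 35.0 and 35.6 CPM in preadipocytes. The groups did not overlap, and the rise was 2.04-fold (log2 1.03, SE 0.080, edgeR adjusted p = 3.60e-06). The other accessory genes of the module, Ndufa2, Ndufa6, Ndufa7, Ndufa12, Ndufs6 and Ndufv3, lay between 1.17 for Ndufa7 and 2.36 for Ndufv3 on the log2 scale. The median over the 10 genes of the module was 1.78.

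The Q module, where electrons reach ubiquinone, was higher throughout. Ndufs3 (chr2:90894634-90904827), a core subunit at the junction of both modules, had 402.9, 335.6 and 306.9 CPM in adipocytes, against 59.96, 51.2 and 50.3 CPM in preadipocytes (log2 2.70, SE 0.13, edgeR adjusted p = 1.27e-07). Ndufs7, which carries the last iron-sulfur cluster before ubiquinone, had 211.8, 156.7 and 142.5 CPM in adipocytes, against 36.7, 25.8 and 31.9 CPM in preadipocytes (log2 2.44, SE 0.18). Library 1 was the highest adipocyte library and the highest preadipocyte library for both of these genes. Ndufs8, another iron-sulfur protein, had 132.6, 105.5 and 98.7 CPM in adipocytes, against 40.9, 28.5 and 31.4 CPM in preadipocytes (log2 1.74, SE 0.16). It was the core subunit with the smallest rise. Ndufa5, an accessory subunit of the module, had 78.1, 82.5 and 81.7 CPM in adipocytes, against 31.4, 30.8 and 31.2 CPM in preadipocytes (log2 1.37, SE 0.070). Over the 7 nuclear core subunits the median was 2.44, and over the 29 other tested subunits it was 1.87.

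The accessory genes of the membrane arm spanned a similar range. In the proximal part, with a median of 2.05 over 10 genes, Ndufa9 (chr6:126821721-126849136), which sits where the matrix arm meets the membrane, had 550.5, 447.6 and 410.5 CPM in adipocytes, against 81.1, 64.3 and 63.0 CPM in preadipocytes (log2 2.76, SE 0.15). Ndufa3, a small membrane subunit, had 77.4, 67.0 and 65.3 CPM in adipocytes, against 33.0, 26.6 and 28.3 CPM in preadipocytes (log2 1.26, SE 0.11). The groups of both genes were separate, and the other 8, Ndufa1, Ndufa8, Ndufa10, Ndufa11, Ndufa13, Ndufc1, Ndufc2 and Ndufs5, lay between 1.44 and 2.75. In the distal part, with a median of 2.23 over 10 genes, Ndufb8 (chr19:44548572-44555440) had 442.6, 367.1 and 331.4 CPM in adipocytes, against 60.9, 48.9 and 51.8 CPM in preadipocytes (log2 2.82, SE 0.13). Ndufb2 had 93.5, 99.5 and 90.4 CPM in adipocytes, against 33.5, 32.4 and 31.1 CPM in preadipocytes (log2 1.54, SE 0.076). The remaining 8, Ndufb3 to Ndufb7 and Ndufb9 to Ndufb11, lay between 1.72 and 2.80.

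Ndufa4 and Ndufa4l2 carry complex I names by history. Ndufa4 (chr6:11900292-11907497), whose human protein is a subunit of cytochrome c oxidase, had 399.3, 424.3 and 385.0 CPM in adipocytes, against 112.8, 110.8 and 107.6 CPM in preadipocytes (log2 1.87, SE 0.075, edgeR adjusted p = 5.40e-08). Without it, the median over the other 35 tested subunits was 2.10. Ndufa4l2, a related gene induced by low oxygen, was the only member too low to test, with 0, 2 and 3 counts in adipocyte libraries and 0, 3 and 3 counts in preadipocyte libraries. The lowest count behind any tested member was 63, for Ndufaf6 in preadipocyte library 2, so no member was tested on the strength of its adipocyte level alone.

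The 8 assembly factors rose by smaller factors than most of the tested nuclear subunits chosen by the name rule. The difference of the medians was 0.65 on the log2 scale, and it stayed between 0.56 and 0.76 under every alternative setting tried. A subunit had the larger rise in 228 of 288 pairings of a subunit with an assembly factor (79.2%), and 18 of 36 subunits rose more than the highest assembly factor. The members are not replicates and were chosen with earlier results known, so no p-value is attached to this difference. Within each replicate number the median ratio of adipocyte to preadipocyte was 2.05, 2.01 and 1.97 for subunits and 1.46, 1.36 and 1.35 for assembly factors, on the log2 scale.

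Ndufaf4, Ndufaf6 and Ndufaf1 had the largest rises among the assembly factors. Ndufaf4 (chr4:24898083-24905001), which works with Ndufaf3 on the Q module, had 28.0, 35.0 and 42.6 CPM in adipocytes, against 6.61, 8.93 and 10.1 CPM in preadipocytes (log2 2.04, SE 0.19, edgeR adjusted p = 1.29e-05). Its partner Ndufaf3 had 24.1, 17.8 and 18.1 CPM in adipocytes, against 8.92, 6.95 and 7.66 CPM in preadipocytes (log2 1.35, SE 0.15). Library 1 was lowest for Ndufaf4 and highest for Ndufaf3 in both groups. Ndufaf6 (chr4:11051045-11076205), an early factor, had 12.7, 11.8 and 11.0 CPM in adipocytes, against 3.60, 2.49 and 2.90 CPM in preadipocytes (log2 1.98, SE 0.16). Ndufaf1 (chr2:119655446-119662827), which helps to build the membrane arm as part of the MCIA complex, had 43.5, 50.5 and 50.8 CPM in adipocytes, against 11.2, 13.4 and 14.7 CPM in preadipocytes (log2 1.88, SE 0.12). Both had groups that were well apart.

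Ndufaf7, Ndufaf5 and Ndufaf2 had smaller fold changes than Ndufaf1, and for Ndufaf5 and Ndufaf2 a related subunit can be set beside them. Ndufaf7 (chr17:78937136-78948052), a protein arginine methyltransferase, had 61.6, 56.6 and 58.4 CPM in adipocytes, against 21.997, 22.2 and 21.1 CPM in preadipocytes (log2 1.43, SE 0.076). Ndufaf5 (chr2:140170649-140203689), which hydroxylates an arginine of Ndufs7, had 17.6, 16.5 and 16.7 CPM in adipocytes, against 8.49, 7.23 and 7.22 CPM in preadipocytes (log2 1.15, SE 0.11). Ndufs7 stood at 2.44. Ndufaf2 (chr13:108002715-108158623), a relative of the subunit Ndufa12, had 13.3, 13.5 and 14.5 CPM in adipocytes, against 6.93, 6.83 and 7.88 CPM in preadipocytes (log2 0.93, SE 0.11), with Ndufa12 at 1.83. The differences within these pairs were not tested.

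Ndufaf8 (chr11:120098928-120100705), which in human cells stabilises the Ndufaf5 protein, had the smallest rise and an unstable call. It had 12.5, 10.4 and 9.17 CPM in adipocytes, against 8.88, 6.48 and 7.33 CPM in preadipocytes. The lowest adipocyte library was just above the highest preadipocyte library, and the rise was 1.42-fold (log2 0.50, SE 0.16, edgeR adjusted p = 0.0204). In TPM (a level scaled for gene length and library) the groups overlapped, at 41.6, 34.0 and 27.3 in adipocytes and 39.8, 27.6 and 37.7 in preadipocytes. Its log2 fold change was 0.17 with total counts (adjusted p = 0.329) and -0.03 with limma on log2(TPM + 1) (adjusted p = 0.902). Without preadipocyte library 2 it was 0.40 (adjusted p = 0.0726) and without preadipocyte library 3 it was 0.48 (adjusted p = 0.0654).

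**Figure D2:**
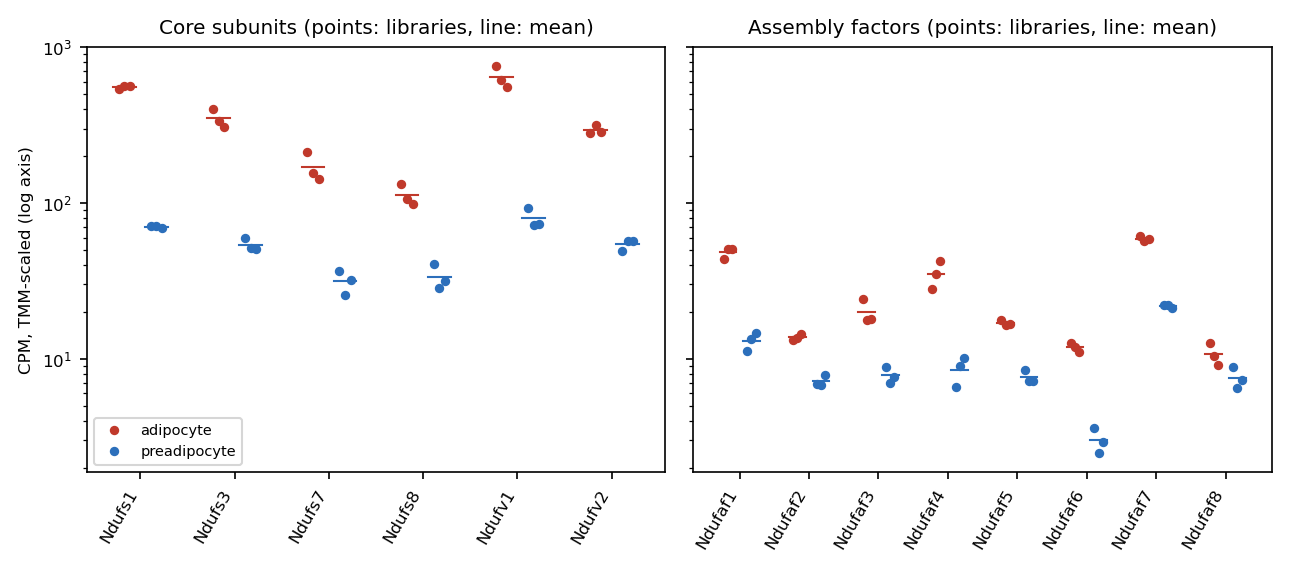
TMM-scaled CPM of 6 nuclear core subunits (left) and the 8 assembly factors (right) in each library on a log axis, with the mean as a line, adipocyte left of preadipocyte. The groups are separate for all 14 genes, narrowly so for Ndufaf8.

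On the TPM scale, which allows levels of different genes to be compared, subunits were far more abundant than assembly factors in every library. The summed level of the subunits was 16386, 14981 and 14102 TPM in adipocyte libraries, against 5389, 4906 and 4989 TPM in preadipocyte libraries. The summed level of the assembly factors was 265.0, 257.4 and 275.5 TPM in adipocyte libraries, against 155.5, 150.7 and 164.9 TPM in preadipocyte libraries. Both sums were separate between groups. The median subunit was 12.5, 12.4 and 11.5 times the median assembly factor in adipocyte libraries, against 8.44, 6.63 and 6.52 times in preadipocyte libraries. Subunit genes took 0.705% ± 0.059 of counts in adipocytes and 0.185% ± 0.014 in preadipocytes (SD, n = 3 each).

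The order of the subunit levels was partly rearranged. Ndufa4 was the most abundant member in both states, at 1221 ± 66.2 TPM in adipocytes and 485.4 ± 20.03 TPM in preadipocytes (SD, n = 3 each). Ndufb4 had the lowest TPM of the tested subunits, at 77.1 ± 6.56 in adipocytes and 29.7 ± 6.77 in preadipocytes (SD, n = 3 each). Its pseudogene Ndufb4c, which shares sequence with it, had 474.3 ± 8.98 TPM in adipocytes and 204.6 ± 3.43 TPM in preadipocytes (SD, n = 3 each). How reads were divided between these genes was not tested, so the last place of Ndufb4 is uncertain. By mean TPM over the 45 members, Ndufv1 ranked 8 in adipocytes and 24 in preadipocytes, and Ndufa9 ranked 10 in adipocytes and 27 in preadipocytes. In the other direction, Ndufa3 ranked 24 in adipocytes and 6 in preadipocytes, and Ndufa7 ranked 12 in adipocytes and 2 in preadipocytes. The SD of log2(TPM + 1) over the subunits was 0.80, 0.76 and 0.73 in adipocyte libraries and 0.77, 0.67 and 0.70 in preadipocyte libraries, which overlap. Over the assembly factors the SD was 0.55 to 0.60 in adipocyte libraries and 0.77 to 0.81 in preadipocyte libraries, so their levels lay closer together in adipocytes.

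Complex I genes with other names were mostly higher too. Of 11 measured assembly factors with other names, 10 were higher, 0 were lower (9 and 1 with limma on log2(TPM + 1)) and the median log2 fold change was 1.66. Foxred1 stood at 2.87 (SE 0.12) and Tmem70, which also serves ATP synthase, at 2.57 (SE 0.076). Tmem126b had 32.2 ± 1.98 CPM in adipocytes and 28.1 ± 0.997 CPM in preadipocytes (SD, n = 3 each), a log2 fold change of 0.20 (edgeR adjusted p = 0.0545). Its call depended on the setting. It was lower with limma on log2(TPM + 1) (-0.31, adjusted p = 0.0170) and log2(TPM + 0.1) (-0.32, adjusted p = 0.0176). It was higher with the replicate block (0.20, adjusted p = 0.0192), RLE factors, DESeq2, no low-count filter, without adipocyte library 1 (0.25, adjusted p = 0.0189) and without both libraries numbered 1, with adjusted p between 0.00857 and 0.0475 over these settings. With the block all 11 factors were thus higher. In the MCIA complex it works with Ndufaf1 at 1.88, Ecsit at 2.38 and Acad9 at 1.81. The 7 subunits encoded by mitochondrial DNA were all higher (6 with limma on log2(TPM + 1)), with a median of 1.41 and a range of 1.07 to 1.91, and summed to 33739 to 36432 CPM in adipocyte libraries and 11390 to 14071 CPM in preadipocyte libraries. Copies of mitochondrial genes in the nuclear genome make their single counts uncertain. The median of these 7 was near the 1.39 of the Ndufaf genes, so the gap described above is one of the nuclear-encoded members. Ndufab1, the mitochondrial acyl carrier protein that is also a complex I subunit, had 223.9 ± 7.29 CPM in adipocytes and 31.9 ± 1.18 CPM in preadipocytes (SD, n = 3 each), a log2 fold change of 2.81 (SE 0.074).

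The other respiratory complexes also rose in adipocytes, with larger medians for subunits than for assembly factors in complexes II, III and IV. Complex II had a median of 2.60 for 4 subunits and 1.0004 for 4 assembly factors, all higher (3 of the factors with limma on log2(TPM + 0.1)), led by Sdhb at 3.21. Complex III had 3.04 for 9 subunits, all higher, led by Uqcrfs1 at 3.92, and 1.08 for 6 assembly factors, of which 5 were higher. The sixth, Uqcc2, was lower at -0.30 (SE 0.083, edgeR adjusted p = 0.00927), a call lost without adipocyte library 2 or 3 and with no low-count filter. Complex IV had 2.13 for the 10 nuclear subunits listed, all higher, led within this list by Cox6a1 at 2.93. Cox7a1 and Cox8b, also nuclear subunits of complex IV, were listed only as brown adipocyte markers. The 3 tested genes of that marker list ranged from 7.86 to 13.96. The 19 complex IV assembly factors had a median of 1.39. Of these, 18 were higher (14 with limma on log2(TPM + 1), 19 with the replicate block) and Pet117 did not pass (2.10, SE 0.88). ATP synthase ran the other way, with 1.96 for 14 nuclear subunits (all higher, 13 with total counts), led by Atp5b at 3.19, and 2.57 for only 3 assembly factors, led by Atpaf2 at 3.28. The gap between subunits and assembly factors was therefore not shown to be particular to complex I.

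**Figure D3:**
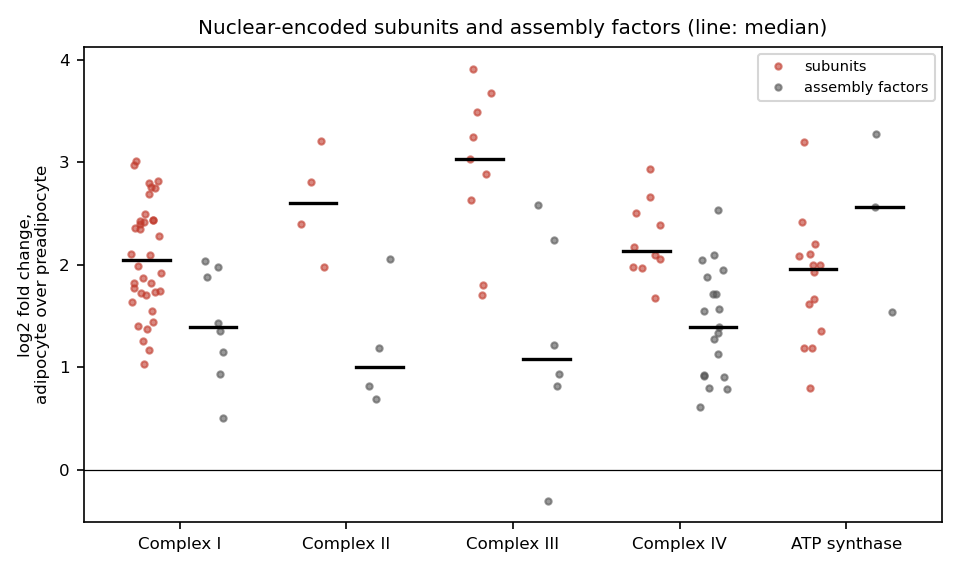
Log2 fold change, adipocyte over preadipocyte, of the listed nuclear subunits (red) and assembly factors (grey) that were tested, with the median as a line. For complex I these are the 36 tested members named as subunits, Ndufa4 included, and the 8 Ndufaf genes. Ndufab1 and the 11 complex I assembly factors with other names are not drawn. Complex I medians are 2.05 and 1.39, and ATP synthase is the complex whose 3 assembly factors have the higher median, 2.57 against 1.96.

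Of the 45 members, 13 (28.9%) start within 1000 bases of a coding gene on the opposite strand that points away from them, against 1325 of 12449 tested coding genes (10.6%). Of these neighbours 11 were tested, and 3 were higher, 3 were lower and 5 did not pass (all 5 were lower with total counts). The shares over all tested genes were 35.7% higher and 37.9% lower. With the replicate block, Ik, beside Ndufa2, also passed as lower at -0.16 (adjusted p = 0.00709, against 0.102 without the block). The median log2 fold change of the 11 neighbours was -0.14, near the -0.06 of all tested genes, against 1.43 for the complex I genes they face. Of the neighbours, 0 of 11 exceeded their partner. Every partner was itself higher, and the share of all genes below such partners was not computed, so this count says little about the neighbours. Ndufa7, whose start lies 10 bases from that of the ribosomal protein gene Rps28, had 145.7, 110.8 and 104.2 CPM in adipocytes, against 62.3, 47.8 and 50.1 CPM in preadipocytes (log2 1.17, SE 0.15). Rps28 had 182.5, 130.2 and 120.6 CPM in adipocytes, against 438.0, 308.9 and 323.4 CPM in preadipocytes (log2 -1.30, SE 0.18, edgeR adjusted p = 0.000193). The groups were separate for both genes, in opposite directions. Ndufa4 at 1.87 faces Phf14 at -1.10, and Ndufaf5 at 1.15 faces Esf1 at -0.69. Ndufb3 faces Fam126b across 61 bases, and both were higher, at 2.35 (SE 0.094) for Ndufb3 and 2.23 (SE 0.21) for Fam126b. Fam126b had 57.3, 78.7 and 97.3 CPM in adipocytes, against 12.7, 18.8 and 18.2 CPM in preadipocytes. The calls of Rps28, Phf14, Esf1 and Fam126b held under every setting, while those of Tepsin (0.44, beside Ndufaf8) and Wdr4 (0.36, beside Ndufv3) were lost with total counts or limma on TPM. Tepsin turned to -0.12 with limma on log2(TPM + 1). The call of Wdr4 was also lost with upper-quartile factors (0.23, adjusted p = 0.0827), without preadipocyte library 2 (0.32, adjusted p = 0.0614) and without preadipocyte library 3 (0.30, adjusted p = 0.0715).

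**Figure D4:**
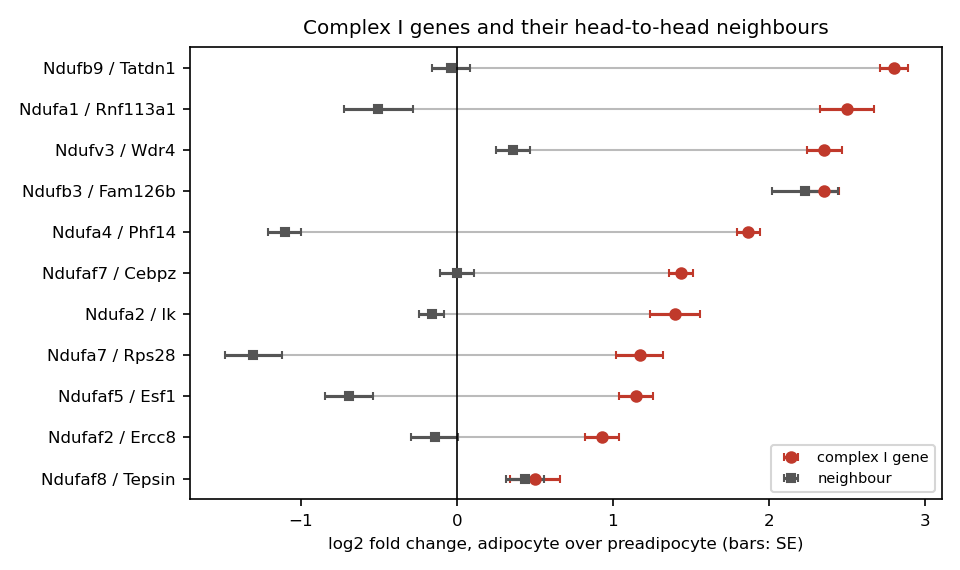
Log2 fold change with SE, adipocyte over preadipocyte, of 11 complex I genes (red circles) and the tested neighbour whose start faces theirs (grey squares). Each circle lies right of its square, from a narrow gap for Ndufaf8 and Tepsin or Ndufb3 and Fam126b to a gap on both sides of 0 for Ndufa7 and Rps28.

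RefSeq promoters were matched for 39 members and not, among others, for Ndufa2, Ndufa4l2, Ndufaf6, Ndufb9 and Ndufs1. The NRF1-type motif (GCGC and TGCGC separated by 1 base, either strand) lay in 9 of 39 (23.1%), against 5.19% of the 27025 genes of the table and 11.7% of 9749 tested coding genes. The 9 were Ndufa5, Ndufa6, Ndufa8, Ndufa11, Ndufaf4, Ndufaf5, Ndufb4, Ndufs5 and Ndufs6. The ETS-type motif CCGGAAG lay in 6 of 39 (15.4%), against 9.93% of all and 20.2% of tested coding genes. The ERR-type motif TCAAGGTCA and the PPAR-type repeat (TGACC, then TT, then TGACC) were in 0 of 39. Their shares were 0.466% and 0.0296% of all genes, and 0.287% and 0.0205% of tested coding genes. With motifs this rare, 0 of 39 does not show that either is lacking. A match describes letters in these windows and is no evidence of binding.

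Gene length, sequence copies and library 1 each moved with some values, and their part in the results was not tested. Over the 36 subunits, all from the same 6 libraries, the log2 fold change and the log2 of annotated length correlated at Pearson r = 0.53 and Spearman rho = 0.55, and over the 8 assembly factors at 0.74 and 0.74, while over all tested genes the values were -0.13 and -0.15. Median lengths were 706 bases for subunits and 1189 for assembly factors. With effective length as an offset the medians were 1.996 and 1.33. That offset removes only differences in the length of a gene between libraries, so it does not address the correlations across genes. Of the 45 members, 18 shared over 5% of their 31-mers with another gene. Ndufb4 is the clearest case, since the pseudogene Ndufb4c had more counts than it, at 81.7 ± 1.501 CPM in adipocytes and 24.7 ± 0.997 CPM in preadipocytes, while Ndufb4 had 46.9 ± 2.13 CPM in adipocytes and 10.9 ± 1.99 CPM in preadipocytes (SD, n = 3 each). Ndufaf2 overlaps B230220B15Rik on the other strand over 65.1% of its 31-mers, but that transcript had only 1.80 CPM in adipocytes and 1.61 CPM in preadipocytes. The ratio of adipocyte library 1 to the mean of the other 2 adipocyte libraries had a median of 1.12 over the 44 members and 0.995 over all tested genes, and the same ratio in preadipocytes had a median of 1.15 over the members and 1.02 over all. Without both libraries numbered 1, all 36 subunits and 8 assembly factors were still higher, with medians of 2.03 and 1.35.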

How the data were processed

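RNA from 3 adipocyte and 3 preadipocyte 3T3-L1 libraries was measured. Per the file headers, the authors deposited 1 gene table per library that gives the expected count, TPM, length and effective length of each gene, beside FPKM (not used here). The tools were Bowtie, Bowtie2, RSEM and DESeq2 and the builds GRCm38 and mm10, per the submitters' processing notes, which state neither versions nor roles. Strandedness is not stated either. The deposited expected counts divide reads that match several genes by a model, so near-identical copies and overlapping genes have uncertain counts. The deposited TPM values were scaled per library by the authors. The deposited length and effective length are other values in bases per gene and library.

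Identifiers were matched to GENCODE M21 on GRCm38 (54723 of 54752). Expected counts were rounded and tested with the quasi-likelihood F-test of edgeR 4.0.16 (R 4.3.3) after filterByExpr and TMM, group as the only term, with Benjamini-Hochberg adjustment over 14726 genes at 0.05. TMM factors were 0.880 to 0.902 in adipocyte and 1.11 to 1.13 in preadipocyte libraries. Standard errors were derived as the absolute fitted log2 fold change divided by the square root of the quasi-likelihood F statistic. The script was tested on simulated data. The closest pair of libraries, preadipocyte 2 and 3, differed by more than counting noise (chi-square per degree of freedom 2.92), so each library was kept as 1 replicate. Promoter sequences and starts came from RefSeq on GRCm38.p6, start sites of neighbours from GENCODE M21.

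Same-numbered libraries deviated together from their group means, with correlations over genes of 0.659, 0.301 and 0.265. All exceeded the limit of 0.1, so the numbers were taken to pair the libraries, and a second fit included the number as a block. The same-numbered library was the closest match for only 4 of 6 libraries, so this pairing is uncertain. Alternatives were RLE, upper-quartile and total count scaling, DESeq2 1.42.0, limma 3.58.1 (voom, log2(TPM + 1) and log2(TPM + 0.1)), no low-count filter, an effective length offset, the replicate block and each library left out. Leaving out both libraries numbered 1 was added after seeing the data.

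The members and gene lists were chosen with earlier results of these data known. One member, kept in the counts and medians, is not reported on its own here. Values were given for the other core subunits, all Ndufaf genes, the largest and smallest change of each module, Ndufa4, Ndufa4l2, up to 2 leading genes of each other list, and Pparg, Adipoq and Dlk1. Exceptions within lists, MCIA partners, copies, neighbours, rank examples and printed promoters were chosen after their values were seen.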

Additional observations from a re-analysis of the deposited data

How the results depend on the processing

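Under the 16 alternatives fixed at the start and the 1 added later, 36 of 36 subunits were higher, and 7 or 8 of 8 assembly factors, with none of either lower. Ndufaf8 was the exception each time. Its log2 fold change was 0.37 with upper-quartile factors (adjusted p = 0.0648), 0.48 with the effective length offset (adjusted p = 0.0681) and it turned to -0.0327 with limma on log2(TPM + 1) and -0.0337 on log2(TPM + 0.1). The median log2 fold change of the subunits was 2.10 with RLE factors, 2.10 with DESeq2, 1.91 with upper-quartile factors, 1.48 and 1.49 with limma on log2(TPM + 1) and log2(TPM + 0.1), 1.72 with total counts, 2.11 with no low-count filter and 1.996 with the effective length offset. Leaving out 1 library at a time gave 2.003 to 2.09. For the assembly factors the median was 1.26 with upper-quartile factors, 0.78 and 0.81 with limma on log2(TPM + 1) and log2(TPM + 0.1), 1.06 with total counts, 1.46 with no low-count filter and 1.33 with the effective length offset, and leaving out 1 library at a time gave 1.31 to 1.49. The difference of the medians was 0.69 with limma on log2(TPM + 1) and 0.56 to 0.76 leaving out 1 library at a time. With the replicate block, 36 subunits and 8 assembly factors were higher with medians of 2.04 and 1.39, and it changed no member's call. Among the other listed genes and the neighbours, it added Tmem126b and 1 complex IV assembly factor to the higher genes and Ik to the lower ones. Over all tested genes, 5763 were higher and 6212 lower with the block, against 5252 and 5575 in the main fit. The median of all genes moved by -0.33 (total counts), -0.13 (upper-quartile factors) and -0.48 (limma on log2(TPM + 1)). Genes called in all ran from 10145 to 12416. The ETS-type motif share was 12.8% in the window from 150 bases before the start.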

Other observations

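Ndufb1-ps, which GENCODE M21 does not type as protein-coding and which therefore fell outside the name rule, had 94.4, 109.1 and 107.6 CPM in adipocytes, against 27.6, 26.9 and 26.4 CPM in preadipocytes. The groups were separate, with a log2 fold change of 1.94 (SE 0.084), close to the median of the subunits.

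Of 10 regulators of mitochondrial gene programmes, 5 were higher, 2 lower and 3 not past the threshold (edgeR adjusted p below 0.05). The shares over all tested genes were 35.7% higher and 37.9% lower. With total counts, and with both limma fits on TPM, 4 regulators were higher and 3 lower. Ppargc1b, a coactivator of mitochondrial genes, had 48.9 ± 1.91 CPM in adipocytes and 1.41 ± 0.13 CPM in preadipocytes, and Esrra, which encodes the nuclear receptor ERRα, had 188.1 ± 30.5 CPM in adipocytes and 27.8 ± 4.85 CPM in preadipocytes (SD, n = 3 each). Their log2 fold changes were 5.12 (SE 0.11) and 2.76 (SE 0.16). Pprc1, a related coactivator, was lower at -0.89 (SE 0.085), and Gabpb1 was lower at -0.50 (SE 0.12). Nrf1 stood at 0.10 (SE 0.11), Gabpa at 0.05 (SE 0.14) and Yy1 at -0.01 (SE 0.098). Yy1 was the gene added to the lower ones with total counts and with both limma fits on TPM. Tfam, at 0.48 in the main fit, was the higher call lost there (0.15 with total counts, edgeR adjusted p = 0.219).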
